A study of Mus musculus with 2 samples.

Results

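Exhaustion-like cells without type 2 cytokines are donor CD4 T cells that carry the transcript of the inhibitory receptor PD-1 together with a second gene tied to exhaustion, and no transcript of the type 2 cytokines. A barcode was counted among them when it held 500 or more unique molecular identifiers (UMIs, 1 per captured transcript) from 250 or more genes, with no more than 10% of them mitochondrial, at least 1 UMI of Pdcd1, at least 1 UMI of Tox, Lag3 or Havcr2, no UMI of Foxp3, Il4, Il5 or Il13, and a sum of at most 2 UMIs over the cell cycle genes Mki67, Top2a, Cdk1, Birc5 and Ube2c. The rule found 59 of 508 called cells, 17 of 156 from MARCH1-/- hosts and 42 of 352 from WT hosts. The cells were chosen by the measured UMIs of these genes, so those values are given as a description, and every other gene of the same cells is described without a test too.

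T cell exhaustion is a state first described in CD8 T cells under lasting antigen, in which several inhibitory receptors stay on the surface and effector output falls. PD-1, encoded by Pdcd1, recruits the phosphatase SHP-2 and dampens signals of the T cell receptor and CD28. Lag3 binds MHC class II in the mouse, Havcr2 encodes TIM-3, and Tox is the nuclear factor that installs the exhaustion program in mouse CD8 T cells. Il4, Il5 and Il13 are the cytokines by which type 2 helper (Th2) cells drive allergic airway inflammation, and Foxp3 defines regulatory T cells.

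The series holds 1 library for each host: donor cells recovered from the lungs of MARCH1-/- recipients, and donor cells recovered from the lungs of WT recipients of the C57BL/6 strain. MARCH1 is a membrane-bound E3 ligase with which dendritic cells and B cells mark MHC class II and the costimulatory ligand CD86 for removal from their surface. In both groups the donors were WT mice sensitized with house dust mite extract on days 0 and 7 to 11, their lung CD4 T cells were labelled with Cell Trace Violet and transferred on day 14, and the recipients were challenged with the same extract. The cells sorted from the lung at day 4 after challenge were those with little dye left, that is cells that had divided, and the labels do not say how many mice went into a library. With 1 library per host, host and library cannot be told apart, no test was possible, and no p-value is given. Levels are CPM, the UMIs of a gene summed over cells and scaled to a common total, and ratios are log2 ratios of CPM. The ranges in brackets are exact 95% intervals that cover counting error only and leave out variation between cells and animals.

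The libraries held 1934068 UMIs (MARCH1-/- host) and 3753437 UMIs (WT host), and no called barcode was shared between them. March1 itself had 0 UMIs in all called cells of both libraries, so the transcript gave no check of the host label. The exhaustion-like cells held 96002 UMIs in the MARCH1-/- host library and 249799 in the WT host library. A median of 5770 UMIs per cell (range 1170 to 8929) in the MARCH1-/- host library stood against 5688 (range 2220 to 10602) in the WT host library. The deposited matrices were not cleared of doublets by the rule: Scrublet marked 0 of the 17 cells from MARCH1-/- hosts and 5 of the 42 from WT hosts with 1 random seed, and over 4 seeds it marked 2 to 5 of those from WT hosts.

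The exhaustion-like share of called cells was 10.9% (6.48–16.9) in the MARCH1-/- host library and 11.9% (8.74–15.8) in the WT host library, and these intervals overlap. More cells left at the limit on type 2 cytokines than at any other step. In the MARCH1-/- host library 132 cells passed the Foxp3 limit, 75 also the cytokine limit and 46 also the cell cycle limit. In the WT host library these steps left 306, 175 and 135 cells. Among the cells that passed all 3 limits, 37% (23.2–52.5) were exhaustion-like in the MARCH1-/- host library and 31.1% (23.4–39.6) in the WT host library.

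Membership, which turns on single UMIs, moved with depth. Over depth tertiles of all called cells, lowest to highest, the exhaustion-like share was 21.2%, 11.5% and 0% in the MARCH1-/- host library. In the WT host library it was 11.1%, 19.7% and 5.08%. The deepest cells were thus the least often included in both libraries, and the part of depth in the share was not tested beyond thinning. With every cell thinned to 2000 UMIs, 12 of 154 cells (7.79%, 4.09 to 13.2) from MARCH1-/- hosts and 37 of 331 cells (11.2%, 7.99 to 15.1) from WT hosts met the rule, with 2 and 21 shallower cells left out. At 1000 UMIs the shares were 3.21% for MARCH1-/- hosts and 4.11% for WT hosts.

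Many cells lay near the threshold. Of the exhaustion-like cells, 10 of 17 from MARCH1-/- hosts and 17 of 42 from WT hosts held a single Pdcd1 UMI. Only 5 of 17 and 23 of 42 held at least 2 UMIs both of Pdcd1 and of the other 3 genes summed. Just outside lay 7 cells from MARCH1-/- hosts and 12 from WT hosts with Pdcd1 but none of Tox, Lag3 and Havcr2. A further 2 cells from MARCH1-/- hosts and 11 from WT hosts were kept out by a single UMI of a type 2 cytokine, and 4 and 5 cells by a single Foxp3 UMI. In RNA outside cells, read from barcodes with at most 100 UMIs, Pdcd1 stood at 147 CPM in the MARCH1-/- host library and 158 CPM in the WT host library. If a droplet held 100 UMIs of it, 1.46% and 1.56% of cells would show a Pdcd1 UMI by that route.

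**Figure D1:**
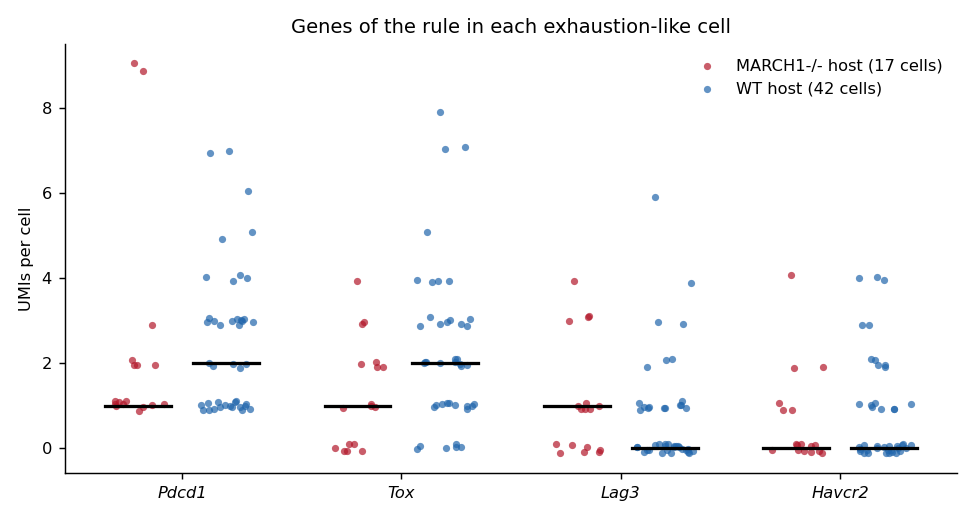
UMIs per cell (vertical axis) of Pdcd1, Tox, Lag3 and Havcr2 in each exhaustion-like cell, with the 17 cells from MARCH1-/- hosts left of the 42 cells from WT hosts and a black bar at the median; points are jittered. Most cells hold few UMIs of each gene, and the median of Tox is 1 in cells from MARCH1-/- hosts and 2 in cells from WT hosts.

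The 4 genes of the rule lay on different chromosomes of the mouse genome (GRCm38, GENCODE M21 gene bounds): Pdcd1 on chromosome 1 (94038305–94052553), Tox on chromosome 4 (6686353–6991557), Lag3 on chromosome 6 (124904361–124911705) and Havcr2 on chromosome 11 (46454935–46481255). Pdcd1 was present at 406 CPM (289–555) in the exhaustion-like cells of MARCH1-/- hosts and 424 CPM (347–513) in those of WT hosts. The counts were 39 and 106 UMIs, with up to 9 UMIs in a cell from MARCH1-/- hosts and up to 7 in a cell from WT hosts. The rule required a Pdcd1 UMI in every cell, so nothing is read from the host ratio of this gene.

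Tox was the gene by which most cells entered. Cells with a Tox UMI made up 11 of 17 (64.7%) from MARCH1-/- hosts and 36 of 42 (85.7%) from WT hosts, at 229 CPM (144–347) and 388 CPM (315–474). Its log2 ratio was -0.76 (-1.50 to -0.08), and -0.15 with the cells thinned to 2000 UMIs. Lag3 was seen in 10 of 17 cells from MARCH1-/- hosts and 18 of 42 from WT hosts, at 198 CPM (119–309) and 132 CPM (90.9–186). Havcr2 was seen in 6 of 17 and 18 of 42 cells, at 115 CPM (57.2–205) and 144 CPM (101–199.5).

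The combinations were mixed in both libraries. Tox alone accompanied Pdcd1 in 5 cells from MARCH1-/- hosts and 14 from WT hosts, and Tox with Lag3 in 3 and 10. Lag3 alone was the partner in 3 cells from MARCH1-/- hosts and 0 from WT hosts, while Havcr2 alone was the partner in 0 and 3. All of the receptors with Tox were detected together in 1 of 17 cells from MARCH1-/- hosts and 5 of 42 from WT hosts. Co-detection of every gene of the program was therefore the exception at this depth.

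The cells carried the markers of CD4 T cells, 12 of 12 detected in each library, at a summed 8687 CPM in cells from MARCH1-/- hosts and 5893 CPM in cells from WT hosts. Cd4 was at 510.4 CPM (378–675) and 797 CPM (689.8–915). All 16 macrophage and monocyte markers and all 7 natural killer (NK) cell markers were at 0 in the exhaustion-like cells of both libraries, as was Cd8a. The other CD8 marker, Cd8b1, had 1 UMI in 1 of 17 cells from MARCH1-/- hosts and 4 UMIs in 4 of 42 from WT hosts. B cell markers summed to 4 UMIs (41.7 CPM) in MARCH1-/- hosts and 9 UMIs (36 CPM) in WT hosts, with 11 and 7 of 13 at 0. Of 12 epithelial and stromal markers, 11 and 9 were at 0, and Pecam1, which T cells can also express, held 5 and 16 of their 5 and 18 UMIs. Markers of type 2 innate lymphoid cells were present, with 4 and 2 of 12 at 0 and sums of 2000 CPM and 2378 CPM. That list shares Gata3, Il1rl1 and Areg with the Th2 identity genes, so it cannot separate such cells from T cells.

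As to the name, the evidence from genes outside the rule was uneven. Ctla4, the receptor that competes with CD28 for CD80 and CD86, was seen in 16 of 17 cells from MARCH1-/- hosts and 37 of 42 from WT hosts. Tigit, another inhibitory receptor, had a UMI in 0 of 17 cells from MARCH1-/- hosts and in 9 of 42 from WT hosts. By 3 counts of the total, 0 of 17 allows up to 17.6% of cells with a Tigit UMI, which is no limit on cells that express it. Entpd1, the ectoenzyme CD39 of terminally exhausted cells, was seen in 3 of 17 and 7 of 42. Eomes, the T-box factor of late exhausted CD8 T cells, was at 0 in both, as was Cxcr5, the follicular homing receptor that PD-1-bearing helper cells of germinal centres carry. Exhaustion-like is therefore used here for what the rule selects and for no more.

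The comparison cells met the same limits on Foxp3, type 2 cytokines and cell cycle genes and had no Pdcd1 UMI: 22 cells from MARCH1-/- hosts and 81 from WT hosts. Since Pdcd1 chose the cells, nothing is read from the size of this contrast. Genes at least 2-fold higher in exhaustion-like than in Pdcd1 = 0 cells made up 15.4% of 4253 genes in the MARCH1-/- host library and 7.39% of 4640 genes in the WT host library. At least 2-fold lower were 12% and 6.47%. In both libraries at once, 90 of 4251 genes (2.12%) were higher and 91 (2.14%) were lower. The exhaustion-like cells were deeper, with a median of 5770 against 4648 UMIs in the MARCH1-/- host library and 5688 against 3789 in the WT host library. Their share of ribosomal protein UMIs was lower, 20.8% against 24.8% and 28% against 33.1%. The part of depth and of ribosomal share in the contrast was not tested beyond the alternatives given at the end.

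Ranked by the bound nearest to no change in the weaker library, the genes that stood higher in exhaustion-like cells began with Rbpj, the DNA-binding partner of Notch. Rbpj stood at 792 CPM (624–991) against 197 CPM (124–299) in Pdcd1 = 0 cells of the MARCH1-/- host library. Its level in the WT host library was 1193 CPM (1061–1336) against 622 CPM (539–714). Rbpj was detected in 16 of 17 and in 42 of 42 exhaustion-like cells, against 11 of 22 and 56 of 81 Pdcd1 = 0 cells, so it was nearly uniform among them.

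Ramp1, the accessory subunit of the receptor for the neuropeptide CGRP, was at 927 CPM (745–1141) against 153 CPM (88.9–244) in Pdcd1 = 0 cells of MARCH1-/- hosts. In the WT host library Ramp1 was at 432 CPM (355–522) against 77.4 CPM (50.1–114). Igfbp7, a secreted binding protein for insulin-like growth factors, was at 562 CPM (423–734) against 135 CPM (75.4–222), and at 548 CPM (460.5–648) against 80.5 CPM (52.6–118). Both were broad, with Ramp1 in 15 of 17 and 25 of 42 cells and Igfbp7 in 14 of 17 and 31 of 42.

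Other ranked genes sat in fewer cells. Nrgn, a calmodulin-binding protein, was at 667 CPM (513–851) against 18 CPM (2.17–64.9) in MARCH1-/- hosts and at 444 CPM (366–535) against 49.5 CPM (28.3–80.4) in WT hosts. Only 8 of 17 and 14 of 42 exhaustion-like cells carried it, and 1 cell held 32.8% and 30.6% of its UMIs. Lgals7, a galectin, was at 208 CPM (127–322) against 0 CPM (0–33.1) in MARCH1-/- hosts, and 1 cell held 70% of its UMIs, without which the log2 ratio of at least 2.95 was at least 1.29. The WT host library gave 560.5 CPM (471–661) against 133 CPM (96.3–179). The remaining ranked genes were Il17a, described with the cytokines, the sugar-phosphate exchanger Slc37a2, the protein kinase C substrate Plek, the proteoglycan Podnl1 and Baz1a, a subunit of a chromatin remodelling complex. Baz1a was at 667 CPM (513–851) against 153 CPM (88.9–244) in MARCH1-/- hosts and 380.3 CPM (308–465) against 167 CPM (126–218) in WT hosts.

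**Figure D2:**
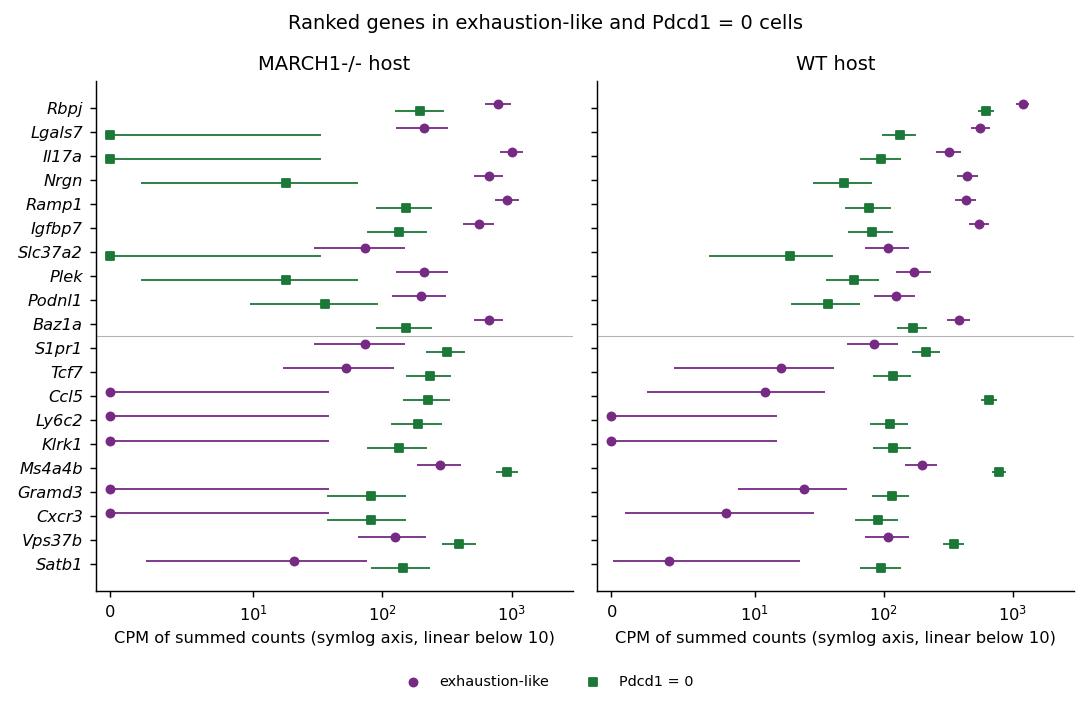
CPM of summed counts (horizontal, symlog axis that is linear below 10) of the 10 genes ranked highest and the 10 ranked lowest in exhaustion-like (purple circles) over Pdcd1 = 0 cells (green squares), in the MARCH1-/- host library (left) and the WT host library (right); lines are exact 95% counting intervals. Above the grey line the purple circles lie right of the green squares in both libraries, and below it they lie left.

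Among genes lower in both libraries, the 10 ranked first by the same bound are named here, with no minimum fold set for the ranking. S1pr1, the receptor that guides T cells out of tissue, was at 72.9 CPM (29.3–150.2) against 314 CPM (219–437) in Pdcd1 = 0 cells of MARCH1-/- hosts, and 84.1 CPM (52–129) against 214 CPM (166–270.2) in WT hosts. Tcf7, which encodes TCF-1, the factor of memory and of progenitor exhausted cells, was at 52.1 CPM (16.9–122) against 233 CPM (152–342), and at 16 CPM (4.36–41) against 118 CPM (83.2–161). Satb1, an organizer of T cell chromatin, held 2 and 1 UMIs in exhaustion-like cells against 16 and 31 in Pdcd1 = 0 cells. Tcf7 was seen in 4 of 17 and 4 of 42 exhaustion-like cells.

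Ccl5, a chemokine of type 1 and cytotoxic cells, had 0 UMIs in the 17 exhaustion-like cells against 25 UMIs in 3 Pdcd1 = 0 cells of MARCH1-/- hosts. The WT host library held 3 UMIs in 2 cells against 211 UMIs in 17 cells. Klrk1, which encodes the activating receptor NKG2D, and Ly6c2 had 0 UMIs in the exhaustion-like cells of both libraries. In Pdcd1 = 0 cells Klrk1 had 15 UMIs (MARCH1-/- host) and 38 UMIs (WT host), and Ly6c2 had 21 and 36. Against a floor of 3 UMIs over the group, Klrk1 was lower by a log2 ratio of at least -2.11 in MARCH1-/- hosts and -3.29 in WT hosts. Cxcr3, the chemokine receptor of type 1 cells, had 0 UMIs against 9 in MARCH1-/- hosts and 2 against 29 in WT hosts. These NK-associated transcripts lay in cells whose NK markers were all at 0. The other ranked genes were Ms4a4b, a membrane protein of T cells, Gramd3 and Vps37b, a subunit of the endosomal sorting machinery.

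Lists are read against all genes, of which 52% lay above a log2 ratio of 0 in the MARCH1-/- host library and 53.7% in the WT host library. Naive and central memory genes lay lowest. Of the 9 with at least 20 UMIs, 0 were higher and 8 at least 2-fold lower in the MARCH1-/- host library, with a median log2 ratio of -2.11 where the median over all genes was 0.04. In the WT host library 1 was higher and 5 were at least 2-fold lower, with a median of -1.34 against 0.05 over all genes. Klf2, the factor that keeps S1pr1 on, was at 52.1 CPM (16.9–122) against 637 CPM (498–804), and at 52 CPM (27.7–89) against 142 CPM (104–189.9). Il7r, the receptor chain for the survival cytokine IL-7, was at 219 CPM (135–334) against 763 CPM (609.5–944), and at 336 CPM (268–416) against 591 CPM (510.2–681). Markers of B cells, which can carry these transcripts too, summed to 41.7 CPM against 162 CPM (95.8–255) in MARCH1-/- hosts and 36 CPM against 21.7 CPM (8.71–44.6) in WT hosts, and their part in the list was not tested. Foxp1 and Txk departed from the list in WT hosts, with log2 ratios of -0.08 (-0.69 to 0.51) and 0.25 (-0.47 to 0.96).

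Type 1 helper and cytotoxic genes were lower for 7 of 10 in MARCH1-/- hosts and 9 of 10 in WT hosts, with medians of -0.62 and -0.72. Il18r1, a receptor chain for IL-18, had log2 ratios of -0.40 (-1.37 to 0.54) and -0.90 (-1.46 to -0.36), and Stat4, the signal carrier of IL-12, had -0.91 (-2.09 to 0.17) and -0.12 (-0.63 to 0.38). Interferon response genes were lower for 15 of 16 in MARCH1-/- hosts (median -0.97) and 14 of 19 in WT hosts (median -0.29). Their summed level in WT hosts went the other way, 10008 CPM against 8984 CPM, and Ifi27l2a alone held 7994 CPM and 6248 CPM of it.

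**Figure D3:**
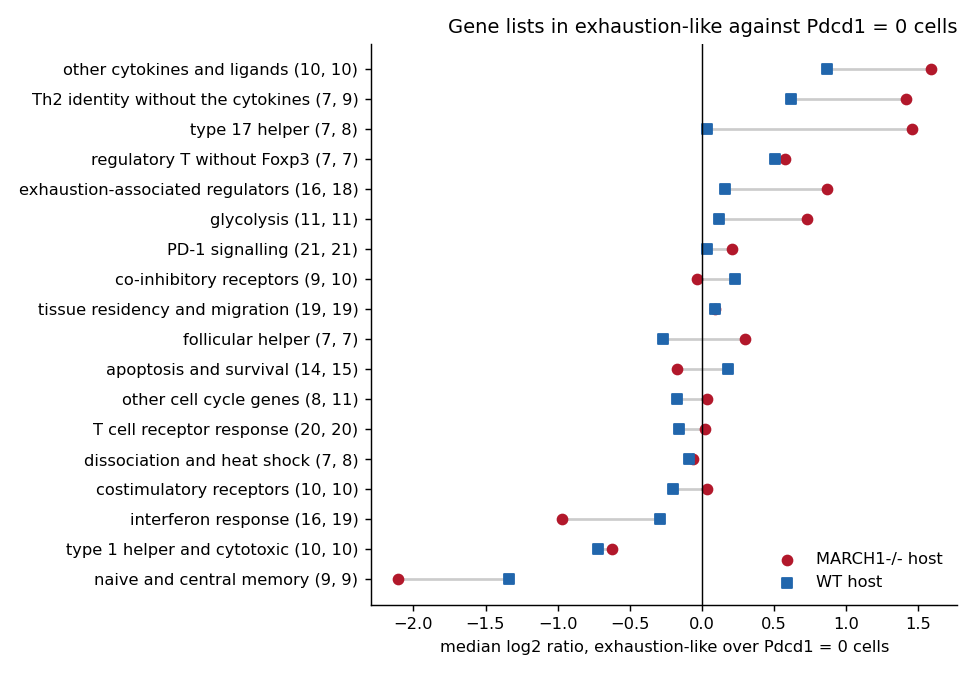
Median log2 ratio of CPM (horizontal) of exhaustion-like over Pdcd1 = 0 cells for each gene list with at least 5 measured genes, in the MARCH1-/- host library (red circles) and the WT host library (blue squares); numbers in brackets are the genes with at least 20 UMIs in each. Naive and central memory genes lie lowest in both libraries, and other cytokines and ligands lie highest in the average of both.

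Exhaustion-associated regulators other than Tox lay above Pdcd1 = 0 cells for 12 of 16 genes in MARCH1-/- hosts (median 0.87) and 13 of 18 in WT hosts (median 0.16), beside 52% and 53.7% of all genes and medians of 0.04 and 0.05. Maf, a factor of IL-10 and of inhibitory receptor expression, was at 1219 CPM (1008–1461) against 754 CPM (601–934) in MARCH1-/- hosts and 1161 CPM (1031–1303) against 897 CPM (797–1007) in WT hosts. Bhlhe40, a factor of cytokine output in helper cells, had log2 ratios of 1.55 (0.88–2.25) and 0.32 (-0.06 to 0.70). Nr4a1, induced by antigen receptor signals, had 0.88 (-0.24 to 2.05) and 0.11 (-0.64 to 0.85). The co-inhibitory receptors outside the rule showed no common direction, with 4 of 9 higher in MARCH1-/- hosts and 7 of 10 in WT hosts, and medians of -0.03 and 0.23. Ctla4 was at 1521 CPM (1284–1788) against 1194 CPM (999.7–1415), and at 608 CPM (516–713) against 501 CPM (427–585).

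T cell receptor response genes, which include the early AP-1 and NF-kappa-B targets, were split, with 10 of 20 higher in MARCH1-/- hosts (median 0.02) and 6 of 20 in WT hosts (median -0.16). Of the PD-1 signalling genes, 14 of 21 and 12 of 21 were higher, with medians of 0.21 and 0.04, beside 52% and 53.7% of all genes and medians of 0.04 and 0.05. The WT host median of this list thus lay at that of all genes. Zap70, the kinase that starts T cell receptor signalling, was at 375 CPM (263–519) against 126 CPM (68.7–211) in MARCH1-/- hosts and 212 CPM (159–278) against 105 CPM (72.9–147) in WT hosts. Follicular helper genes were higher for 5 of 7 and 3 of 7, set against the same shares. Costimulatory receptors, with medians of 0.04 and -0.20, and the dissociation and heat shock genes, with -0.06 and -0.09, lay near the median over all genes.

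Cells without Il4, Il5 and Il13 were not without cytokines. At least 1 UMI of Il17a, Il17f, Ifng, Il10, Il21, Csf2, Il2, Il3, Il9, Il22 or Tnf, a set put together after the values were seen, was present in 12 of 17 exhaustion-like cells from MARCH1-/- hosts and 22 of 42 from WT hosts. In Pdcd1 = 0 cells the numbers were 6 of 22 and 33 of 81. The expected shares at 2000 UMIs per cell were 52.3% against 20.9% in MARCH1-/- hosts and 40.8% against 32% in WT hosts. In WT hosts the intervals of the measured shares overlapped, 36.4–68% against 29.9–52.2%. Cytokine-positive counterparts, which met the rule but for at least 1 type 2 cytokine UMI, gave 6 of 16 and 27 of 55. Their expected shares at 2000 UMIs were 26.5% and 28.3%.

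Il17a, the cytokine of type 17 helper cells that draws in neutrophils, was at 1010.4 CPM (819–1233) in exhaustion-like cells of MARCH1-/- hosts and had 0 UMIs in Pdcd1 = 0 cells. In WT hosts the level was 320.3 CPM (254–399) against 95.9 CPM (65.2–136). The transcript lay in 5 of 17 exhaustion-like cells (29.4%, 30.9% expected at 2000 UMIs) and 0 of 22 Pdcd1 = 0 cells in MARCH1-/- hosts, and by 3 counts of the total 0 of 22 allows up to 13.6% of cells with an Il17a UMI. In WT hosts it lay in 11 of 42 (26.2%, 21.4% at 2000 UMIs) and 7 of 81 (8.64%, 7.34% at 2000 UMIs). Carry-over of 100 UMIs of RNA from outside cells would give 2.48% and 1.41% of cells an Il17a UMI, and 1 cell held 33% and 25% of the Il17a UMIs.

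Other helper genes, chosen here after the values were seen, were set beside Il17a cell by cell. Tmem176a, an ion channel protein linked to type 17 cells, was in 4 of 5 exhaustion-like cells with Il17a and 2 of 12 without it in MARCH1-/- hosts, and in 8 of 11 and 0 of 31 in WT hosts. Tmem176b was less confined, in 4 of 5 and 5 of 12, and in 6 of 11 and 5 of 31. Il1rl1, which encodes the IL-33 receptor ST2 of Th2 cells, was in 0 of 5 and 3 of 12, and in 0 of 11 and 6 of 31. Il17a and Il1rl1 were thus not seen in the same exhaustion-like cell, but Il1rl1 was also rare without Il17a. Other Th2 genes were seen with Il17a. Gata3 was in 1 of 5 and 6 of 12, and in 4 of 11 and 22 of 31. Lgals7 was in 1 of 5 and 3 of 12, and in 3 of 11 and 12 of 31. Tox was present both with Il17a (4 of 5 and 9 of 11 cells) and without it (7 of 12 and 27 of 31).

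As a list, other cytokines and ligands lay above Pdcd1 = 0 cells for 7 of 10 genes in MARCH1-/- hosts (median log2 ratio 1.59) and 8 of 10 in WT hosts (median 0.87). Type 17 helper genes did so for 5 of 7 (median 1.46) and 6 of 8 (median 0.04). All genes did so for 52% (median 0.04) in MARCH1-/- hosts and 53.7% (median 0.05) in WT hosts, so the WT host median of the type 17 genes lay at that of all genes. Surface ligands were frequent, and their shares in the cytokine-positive counterparts are given below. Tnfsf11, which encodes RANKL, was in 11 of 17 exhaustion-like and 4 of 22 Pdcd1 = 0 cells in MARCH1-/- hosts, expected at 38.4% against 12.6% at 2000 UMIs. In WT hosts it was in 17 of 42 and 14 of 81 cells, expected at 24.5% against 10.3%. Tnfsf8, which encodes CD30 ligand, was at 437 CPM (315–591) against 153 CPM (88.9–244) in MARCH1-/- hosts and at 1153 CPM (1024–1294) against 585 CPM (504–674) in WT hosts. In MARCH1-/- hosts 1 cell held 21 of its 42 UMIs, and without that cell the log2 ratio of 1.52 was 0.66 (-0.34 to 1.67). The same repeat in WT hosts gave 0.79 (0.51 to 1.07). Areg, the epithelial growth factor amphiregulin, was at 302 CPM (202–434) against 98.7 CPM (49.3–177), and at 232 CPM (176–300.2) against 92.8 CPM (62.6–133). Without the cell with most Areg UMIs its log2 ratios were 0.93 (-0.24 to 2.17) in MARCH1-/- hosts and 0.91 (0.20 to 1.63) in WT hosts. Th2 identity genes other than the cytokines of the rule, Areg and Lgals7 among them, were higher for 5 of 7 in MARCH1-/- hosts (median 1.42) and 8 of 9 in WT hosts (median 0.62). Gata3 (-0.14) and Il1rl1 (-1.87) were lower in MARCH1-/- hosts, and had 0.30 and 1.62 in WT hosts. Plac8 in MARCH1-/- hosts rested on 1 cell, without which its log2 ratio of 1.49 was -0.93, while Furin went from 1.42 to 1.24. Il21, the follicular helper cytokine, was in 2 of 17 against 0 of 22 cells and in 4 of 42 against 2 of 81.

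**Figure D4:**
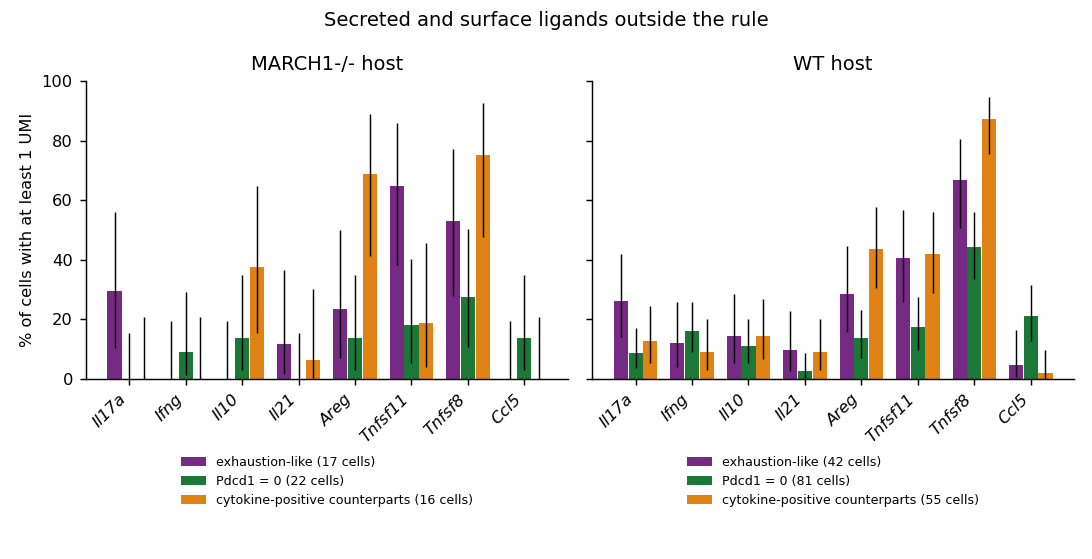
Share of cells with at least 1 UMI (vertical, percent) of 8 secreted or surface ligands in exhaustion-like cells (purple), Pdcd1 = 0 cells (green) and cytokine-positive counterparts (orange) of the MARCH1-/- host (left) and WT host (right) libraries; error bars are exact 95% binomial intervals. Il17a and Tnfsf11 are seen in larger shares of exhaustion-like than Pdcd1 = 0 cells in both libraries, and Ccl5 in smaller shares.

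Counterparts that met every limit but held at least 1 UMI of Il4, Il5 or Il13 numbered 16 in MARCH1-/- hosts and 55 in WT hosts. They were added as a comparison after the data were seen, and were deeper, with a median of 8414 and 6665 UMIs against the 5770 and 5688 of the cells without type 2 cytokines. Genes at least 2-fold higher in the cells without type 2 cytokines made up 14.2% in the MARCH1-/- host library, 6.79% in the WT host library and 1.96% of 4594 genes in both at once. At least 2-fold lower were 13.1%, 7.03% and 2%. The genes of the rule gave no common direction, 2 of 4 higher in MARCH1-/- hosts and 3 of 4 in WT hosts. Pdcd1 was at 406 CPM against 482 CPM (370.2–616) in MARCH1-/- hosts and 424 CPM against 367 CPM (310.3–431) in WT hosts.

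Above a log2 ratio of 0 lay 51.6% of all genes in MARCH1-/- hosts (median 0.03) and 51.3% in WT hosts (median 0.01). Th2 identity genes other than the cytokines were lower for 9 of 11 (median -2.19) in MARCH1-/- hosts and 10 of 12 (median -0.87) in WT hosts. Gata3, the Th2 lineage factor, was at 187 CPM (111–296) against 856 CPM (705–1031) in MARCH1-/- hosts and 296 CPM (233–372) against 608 CPM (534–689) in WT hosts. Il1rl1 was at 41.7 CPM (11.4–107) against 650.0 CPM (519–804), and at 152 CPM (108–209) against 427 CPM (365–495). Rbpj, Maf and Ctla4 had log2 ratios of 0.05 (-0.40 to 0.49), -0.18 (-0.53 to 0.16) and 0.11 (-0.21 to 0.43) in MARCH1-/- hosts and 0.02 (-0.20 to 0.23), -0.01 (-0.22 to 0.21) and 0.26 (-0.05 to 0.57) in WT hosts. Nrgn went the other way, with log2 ratios of 6.45 (3.92–11.77), resting on 1 UMI in the counterparts, and 2.16 (1.63–2.72).

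Between hosts, 362 of 2580 genes (14.0%) were at least 2-fold higher and 226 (8.76%) at least 2-fold lower in the exhaustion-like cells of MARCH1-/- hosts. The median log2 ratio over all genes was 0.16, with 58.2% of genes above 0, beside a ribosomal protein share of 20.8% in MARCH1-/- hosts and 28% in WT hosts. Higher genes made up 61.6% of the calls in CPM, but 47.9% with the total taken without ribosomal protein and mitochondrial genes, 45.7% relative to the median gene and 44.4% with median-of-ratios size factors. An excess of higher genes therefore depended on the scaling. In Pdcd1 = 0 cells, 12.9% of 2999 genes were at least 2-fold higher and 9.87% at least 2-fold lower in MARCH1-/- hosts, with a median of 0.18 and 58.7% of genes above 0.

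The gene that headed the host ranking in exhaustion-like cells was Id2, an inhibitor of E-protein factors that favours effector over memory fates. Id2 stood at 1292 CPM (1074–1540.0) in MARCH1-/- hosts and 308 CPM (243–385) in WT hosts, 4.19-fold (3.13–5.64) higher, and was seen in 17 of 17 and 28 of 42 cells. In Pdcd1 = 0 cells its log2 ratio was 1.10 (0.64–1.56). Junb, an AP-1 subunit, was at 2375 CPM (2077–2704) in MARCH1-/- hosts and 841 CPM (731–962) in WT hosts, and S100a4, a calcium-binding protein of motile T cells, at 3854 CPM (3471–4268) and 1537 CPM (1387–1699). Both were also higher in Pdcd1 = 0 cells of MARCH1-/- hosts, with log2 ratios of 1.19 (0.95–1.43) and 1.13 (0.87–1.39).

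The phosphatases Dusp1 and Dusp2, which switch off MAP kinases after activation, were at 635 CPM (486–816) and 260.4 CPM (169–384) in MARCH1-/- hosts and 172 CPM (125–232) and 60 CPM (33.6–99) in WT hosts. Il17a had a log2 host ratio of 1.66 (1.22–2.10), although the shares of cells with a UMI were close, 29.4% and 26.2%. Tmem176a had 2.21 (1.44–3.02). Other ranked genes were the ribonuclease gene Rnaset2a, the adaptor Dok2, the sorting nexin Snx20, the RNA-binding protein Hnrnpa0 and Chuk, a kinase of NF-kappa-B signalling. Rnaset2a, at 19 UMIs against 1 UMI, has a near-identical copy, Rnaset2b, at 8 against 6 UMIs, so how reads were split between them is uncertain.

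Lower in MARCH1-/- hosts was Tmsb10, a thymosin that binds actin monomers, at 1469 CPM (1236–1732) against 8231 CPM (7879–8594), 5.6-fold (4.72–6.69) lower. In Pdcd1 = 0 cells its log2 ratio was -1.92 (-2.10 to -1.75). Erh, a small splicing-associated protein, had 0 UMIs against 35 UMIs, and 0 against 46 in Pdcd1 = 0 cells. Wdr89, Ndufa3, a subunit of respiratory complex I, and Sec61g, a subunit of the protein channel of the endoplasmic reticulum, had log2 ratios of -3.22 (-4.87 to -1.96), -2.10 (-3.09 to -1.25) and -1.67 (-2.25 to -1.13). In Pdcd1 = 0 cells they were -2.68 (-3.70 to -1.81), -1.85 (-2.80 to -1.03) and -1.41 (-1.95 to -0.90). Of the 12 genes ranked lower, 11 pointed the same way in Pdcd1 = 0 cells, 9 of them at least 2-fold, and of the 12 ranked higher, 8 did, 6 of them at least 2-fold. Most of the host ranking was thus shared with cells of the same libraries that lacked Pdcd1.

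Interferon-linked and effector genes followed. Ifi27l2a, induced by interferons, was at 2812 CPM (2487–3169) in MARCH1-/- hosts and 7994 CPM (7648–8353) in WT hosts. Plac8, a gene of Th2 and effector cells, was at 177 CPM (103–284) and 633 CPM (538–739), with 82.4% of the UMIs from MARCH1-/- hosts in 1 cell. Without the cell with most Plac8 UMIs in each library the log2 host ratio was -3.84 (-6.14 to -2.26), against -1.84 with them. Ifng had 0 UMIs in the 17 cells of MARCH1-/- hosts and 43 UMIs in 5 of 42 cells of WT hosts, 53.5% of them in 1 cell. Il10, an anti-inflammatory cytokine, had 0 UMIs and 28 UMIs in 6 cells. By 3 counts of the total, 0 of 17 allows up to 17.6% of cells with a UMI of either gene. That limit lies above the shares in WT hosts, 11.9% for Ifng and 14.3% for Il10. Against a floor of 3 UMIs, Ifng was at least 5.51-fold and Il10 at least 3.59-fold lower in summed counts, counting error aside. With counting error, the upper bounds of the log2 ratios were -2.10 for Ifng and -1.45 for Il10. The cell with 23 of the Ifng UMIs was among those that Scrublet marked in WT hosts, and without it Ifng was at least 2.67-fold lower. With all Scrublet doublets left out the bounds were 2.92-fold for Ifng and 4.15-fold for Il10. Without the cell with most Il10 UMIs, which held 11, the Il10 bound was 2.23-fold. These repeats were added after the data were seen.

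The remaining ranked genes were the glycolytic enzyme Eno1, with 3 UMIs in MARCH1-/- hosts and 53 in WT hosts, the survival gene Bcl2a1d, with 2 and 51, and the motor protein Myo1e, with 1 and 33. Their log2 ratios were -2.76 (-5.09 to -1.14), -3.29 (-6.38 to -1.37) and -3.66 (-9.01 to -1.09). Bcl2a1d has a near-identical copy, Bcl2a1b, at 13 and 64 UMIs (-0.92, -1.90 to -0.05), so the split between them is uncertain. The copy pointed the same way.

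**Figure D5:**
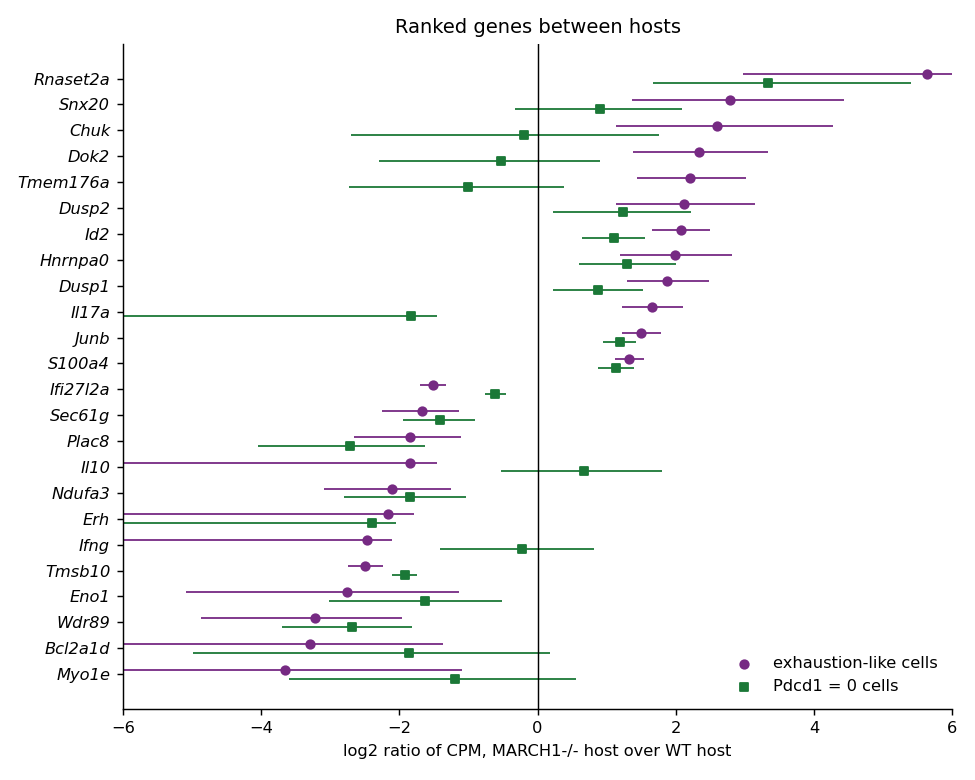
Log2 ratio of CPM, MARCH1-/- host over WT host (horizontal), of the 12 genes ranked higher and the 12 ranked lower in exhaustion-like cells (purple circles), with the same ratio in Pdcd1 = 0 cells (green squares); lines are exact 95% counting intervals drawn no farther than 6 on either side, and points of genes with 0 UMIs on one side are bounds at a floor of 3 UMIs. Most green squares lie on the side of their purple circle, and Il17a, Tmem176a, Dok2, Chuk and Il10 are exceptions.

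By lists, costimulatory receptors were higher in exhaustion-like cells of MARCH1-/- hosts for 7 of 7 genes, 4 of them at least 2-fold. Of all genes 58.2% were higher and 14.0% at least 2-fold higher. Costimulatory receptors had a median log2 ratio of 1.13 beside 0.16 over all genes. Their median kept its sign under all 10 alternatives, between 0.43 and 1.11, and was 0.47 in Pdcd1 = 0 cells. Cd28, the receptor that MARCH1-controlled CD86 engages, was at 552 CPM (414–722) in MARCH1-/- hosts and 252 CPM (194–323) in WT hosts. Slamf1, a homotypic adhesion receptor, was at 198 CPM (119–309) and 80.1 CPM (48.9–124). Ctla4, the inhibitory receptor for the same ligands as Cd28, was 2.5-fold (1.98–3.16) higher, and its log2 ratio was 1.32 (0.98–1.66) in exhaustion-like and 1.25 (0.91–1.59) in Pdcd1 = 0 cells. Tnfrsf4, which encodes OX40, differed by a log2 ratio of 0.02 (-0.50 to 0.52).

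T cell receptor response genes were higher for 13 of 18, 9 of them at least 2-fold. Their median was 0.90 (0.56 to 0.82 over 10 alternatives). Of all genes 58.2% were higher and 14.0% at least 2-fold higher, with a median of 0.16. In Pdcd1 = 0 cells 13 of 18 genes of the list were higher too, 6 at least 2-fold (median 0.36). There 58.7% of all genes were higher and 12.9% at least 2-fold higher. Nfkbia, the inhibitor that NF-kappa-B induces, was at 1250.0 CPM (1036–1495) in MARCH1-/- hosts and 528 CPM (442–627) in WT hosts. Fos was at 625 CPM (477–804) and 300.2 CPM (236–376). Tnfaip3 and Rel did not follow, with log2 ratios of 0.34 (-0.30 to 0.95) and -0.18 (-0.93 to 0.52), and that of Tnfaip3 was -0.06 with the cells thinned to 2000 UMIs. Genes of dissociation and heat shock, which can respond to tissue handling, had a median of -0.25 in the same cells. That list holds mainly heat shock genes and leaves out Fos, Jun, Junb, Ier2 and Nfkbia, which were counted as T cell receptor response genes. The part of tissue handling in the T cell receptor response genes was not tested.

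Th2 identity genes lay lower for 5 of 6 genes in exhaustion-like cells of MARCH1-/- hosts, 3 of them at least 2-fold. Of all genes 8.76% were at least 2-fold lower, and 58.2% were higher. The median of the Th2 list was -1.15 (-1.31 to -0.76 over 10 alternatives), and -1.27 in Pdcd1 = 0 cells. Lgals7 and Furin, a protease that processes cytokine precursors, had log2 ratios of -1.43 (-2.18 to -0.75) and -0.87 (-1.33 to -0.44). That of Lgals7 was -2.78 without the cell with most of its UMIs in each library and -0.81 without Scrublet doublets. Gata3 had -0.66 (-1.49 to 0.10), and Areg had 0.38 (-0.32 to 1.05). Among exhaustion-associated regulators 8 of 10 were higher, with a median of 0.33 (0.07 to 0.66 over the alternatives, lowest with at least 50 UMIs per gene), beside 58.2% of all genes and a median of 0.16. Batf, an AP-1 factor of effector and exhausted cells, was at 344 CPM (237–483) in MARCH1-/- hosts and 124 CPM (84.3–176) in WT hosts, while the log2 ratio of Rbpj was -0.59 (-0.97 to -0.22) and that of Maf 0.07 (-0.25 to 0.38). The co-inhibitory receptors outside the rule were split, with 3 of 6 higher and a median of 0.11 that changed sign under 5 of 10 alternatives. Type 17 helper genes were higher for 5 of 6 (median 0.78), beside the same 58.2% of all genes. The median of the type 17 list was -0.50 with the cells thinned to 2000 UMIs. Glycolysis genes were higher for 9 of 10 (median 0.69), with Eno1 the exception. The same list was higher for 9 of 10 in Pdcd1 = 0 cells too (median 0.34), beside 58.7% of all genes.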

How the data were processed

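Donor CD4 T cells were profiled with 3' single-cell RNA-seq (10x Chromium v3.1, per the labels), 1 library per host. The authors deposited raw matrices of UMI counts, genes by barcodes, in which every barcode is kept and no cell call is marked. The submitters' processing notes list Cell Ranger 3.1.0 and mm10, whereas version 4 stands in the header of each matrix. Filters of the authors beyond this are not given in the sources used here, and GENCODE M21 (GRCm38) supplied coordinates.

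Cells were selected by the rule given in the report, and raw counts were summed over cells per library and class. CPM of these sums carry exact Poisson intervals, log2 ratios exact conditional binomial intervals and shares Clopper-Pearson intervals, all at 95%, and the ratio intervals were tested on simulated data. Ratios were taken for genes with at least 20 UMIs, a side at 0 was set to a floor of 3 UMIs over the group, and called means at least 2-fold. Cells are not replicates, so no p-value was computed. For shares across depths, cells were thinned to 2000 UMIs. RNA outside cells was read from barcodes with at most 100 UMIs. Doublets were kept, since the rule sets no limit on them, and Scrublet (expected rate 0.05) served as an alternative.

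Named genes were those of the rule, up to 6 of each of 28 lists by UMIs, a fixed set of exhaustion and helper genes, and 12 higher and 12 lower between hosts and 10 higher and 10 lower over Pdcd1 = 0 cells, ranked by the interval bound nearest to no change. Cells, lists and rules were chosen with earlier results of these data known. The comparison with cytokine-positive counterparts was added after the data were seen. Aldoa, whose symbol stands for more than 1 row, was left out. The software was scanpy 1.11.5, scipy 1.17.1, numpy 2.4.6, pandas 2.3.3 and matplotlib 3.10.9 under Python 3.11.15.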

Additional observations from a re-analysis of the deposited data

Results flagged for a closer look

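For 5 genes the difference between exhaustion-like and Pdcd1 = 0 cells pointed one way in the MARCH1-/- host library and the other way in the WT host library. The difference between the hosts was not tested, since each host had 1 library. Furin had a log2 ratio of 1.42 (0.69 to 2.19) in MARCH1-/- hosts and -0.24 (-0.47 to 0.00) in WT hosts. The Th2 receptor gene Il1rl1 had -1.87 (-3.90 to -0.26) and 1.62 (0.74 to 2.56), on 4 and 38 UMIs in exhaustion-like cells. Ifng was at or below -1.52, a bound since its count was 0 in exhaustion-like cells of MARCH1-/- hosts, and had 0.71 (0.03 to 1.40) in WT hosts. The opposite direction of Ifng rested on 1 of the exhaustion-like cells from WT hosts, which held 23 of 43 Ifng UMIs and was marked by Scrublet. Without that cell the WT host ratio was -0.33 (-1.21 to 0.50), and without all Scrublet doublets -0.23 (-1.12 to 0.63). Tmem176b had 1.8 (0.51 to 3.28) and -0.99 (-1.92 to -0.12). Without the exhaustion-like cell with most Tmem176b UMIs in each library its ratios were 1.10 (-0.36 to 2.68) and -1.24 (-2.26 to -0.31). Leaving out Scrublet doublets gave 2.48 (0.91 to 4.48) and -0.74 (-1.68 to 0.12). Ifi27l2a had -0.54 (-0.77 to -0.32) and 0.36 (0.27 to 0.45).

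Barcodes above the limit of 10% mitochondrial UMIs were outside every comparison. Of 72 such barcodes in the WT host library, 7 (9.72%, 4–19) met the rest of the rule. In the MARCH1-/- host library 3 of 25 (12%, 2.55–31.2) did. The shares among called cells, 11.9% in WT hosts and 10.9% in MARCH1-/- hosts, lay within these intervals.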

How the results depend on the processing

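The exhaustion-like share, 10.9% in MARCH1-/- hosts and 11.9% in WT hosts, was 3.21% and 4.11% with cells thinned to 1000 UMIs, 4.49% and 7.1% with at least 2 Pdcd1 UMIs, and 5.77% and 6.82% with the cell cycle genes at 0. The other 5 alternatives moved neither share beyond its interval. The 362 genes higher and 226 lower between hosts became 754 and 424 with at least 10 UMIs per gene, 95 and 85 with at least 50, 1114 and 613 with no filter, and 100 and 113 with cells thinned to 2000 UMIs. The higher count was 241 with median-of-ratios size factors. The 90 genes higher and 91 lower than Pdcd1 = 0 cells in both libraries became 176 and 259 against all Pdcd1 = 0 cells, 57 and 30 with cells thinned to 2000 UMIs, and 27 and 29 with at least 50 UMIs per gene. Fewer or more genes tested enter by construction with each minimum, and otherwise the cause was not tested. For the host ratios of 139 named genes, 1267 values under the alternatives lay within the gene's own counting interval and 18 outside it. For 22 list medians, 203 values lay within 0.5 (log2) of the median given and 13 farther away, and of these ratios and medians of at least 2-fold none changed sign. For 13 genes, ratios were also repeated without the exhaustion-like cell with most of the gene's UMIs and without Scrublet doublets, after the data were seen. Without that cell the sign of Plac8 over Pdcd1 = 0 cells in MARCH1-/- hosts turned, with a log2 ratio of -0.93 against 1.49. In WT hosts Ifng turned from 0.71 to -0.33 and Tmem176a from 0.04 to -0.54. Without Scrublet doublets Ifng in WT hosts turned too, to -0.23. No paired analysis was possible because each host had 1 library, so that fewer than 2 replicate numbers were shared, and for the same reason no replicate could be left out. Depth limits every single-UMI call, and no value here carries the spread between animals.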

Other observations

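Of the 7 genes of regulatory T cells with at least 20 UMIs, Foxp3 not among them, 7 lay above Pdcd1 = 0 cells in MARCH1-/- hosts (median log2 ratio 0.58) and 6 in WT hosts (median 0.51). Of all genes 52% and 53.7% did so, with medians of 0.04 and 0.05. Ikzf2, which encodes the factor Helios, was counted with the exhaustion-associated regulators and not in this list. It was seen in 7 of 17 exhaustion-like cells from MARCH1-/- hosts and 14 of 42 from WT hosts. In Pdcd1 = 0 cells, which were shallower, the numbers were 5 of 22 and 16 of 81. The level of Ikzf2 was not higher, with log2 ratios of -0.05 in MARCH1-/- hosts and -0.08 in WT hosts. Expected shares at 2000 UMIs per cell were 17.9% against 16.5% in MARCH1-/- hosts and 19% against 14.8% in WT hosts.

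Against the cytokine-positive counterparts, follicular helper genes were higher in the cells without type 2 cytokines for 6 of 7 in MARCH1-/- hosts (median 1.45) and 6 of 7 in WT hosts (median 0.54), beside 51.6% and 51.3% of all genes, while Cxcr5 was at 0 in the cells without type 2 cytokines. Glycolysis genes were lower for 7 of 12 in MARCH1-/- hosts (median -0.18) and 12 of 12 in WT hosts (median -0.66). Interferon response genes were lower for 15 of 16 in MARCH1-/- hosts and higher for 14 of 16 in WT hosts, a difference between hosts that was not tested.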
